A study of Danio rerio with 12 samples.

Results

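Molecular chaperones are proteins that help other proteins fold and keep them from aggregating. The genes described here are those of the heat shock proteins, of the J-domain proteins named DnaJ, of the cytosolic chaperonin, of several co-chaperones, of heat shock factors 1 and 2 and of the cold-inducible RNA-binding proteins, measured in eyes of adult zebrafish with and without a working akr7a3 gene. They were taken by gene name: 99 of the 25432 genes in the deposited table carry a name of these families. No measured value entered this rule, but earlier results of these data were known when the names were chosen. The name cct2 occurs with 2 gene identifiers, ENSDARG00000104674 and ENSDARG00000087206, which were kept apart.

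Eyes came from akr7a3-/- zebrafish, a CRISPR/Cas9 line with an insertion in exon 1 that shifts the reading frame of akr7a3, and from akr7a3+/+ zebrafish (6 eyes each). The mutant line was made in and bred with fish of the transgene Tg(fli1:EGFP), a green fluorescent reporter of blood vessels. The study's methods for RNA sequencing do not name the transgene of the sequenced fish. The gene akr7a3 encodes an aldo-keto reductase that detoxifies reactive aldehydes. Eyes are named below by genotype and by the number in their labels, which are 1, 4, 5, 7, 8 and 9 for akr7a3-/- and 1, 2, 3, 4, 6 and 7 for akr7a3+/+. Age, sex, water temperature and the hour and light at which the eyes were taken are not given in the sources used here, nor is it said whether eyes of 1 genotype came from separate fish, so that p-values measure the spread between these samples.

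Inside the cell, HSP70 proteins bind unfolded stretches of a client protein, J-domain proteins bring clients to HSP70 and start its use of ATP, and nucleotide exchange factors such as the HSP110 proteins and BAG3 release the client. HSP90 takes over many kinases and steroid receptors, HSP60 works in mitochondria, and the CCT chaperonin folds actin and tubulin. Heat and other stress that unfolds proteins frees heat shock factor 1 to switch on the inducible members of these families, while constitutive members such as hspa8 and hsp90ab1 are abundant without stress, and the cold-inducible RNA-binding proteins go up in mild cold. In vertebrates the lens, the retina and striated muscle are each known for high levels of particular chaperones.

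Read totals, worked out from the FPKM values, were 22237970 to 35016388 in the akr7a3-/- group and 21194609 to 34935342 in the akr7a3+/+ group. They are the totals by which FPKM was scaled and may be smaller than the number of reads sequenced. The targeted gene akr7a3 had a mean of 0.348 FPKM (SD 0.0621) over the akr7a3-/- eyes and of 2.05 FPKM (SD 0.541) over the akr7a3+/+ eyes, which fits the labels. FPKM counts fragments relative to the length of the gene and to the reads of the library, so that levels of different genes can be set side by side. Tissue markers differed between eyes. The summed FPKM of 25 lens genes was 1020 in akr7a3-/- eye 1, against 7339 to 23310 in the other akr7a3-/- eyes and 13404 to 27053 in akr7a3+/+ eyes. Photoreceptor markers summed to 45169 to 53508 FPKM in akr7a3-/- eyes, to 28458 and 29845 FPKM in akr7a3+/+ eyes 1 and 3, and to 39409 to 42956 FPKM in the other akr7a3+/+ eyes. The photoreceptor sums do not speak for every marker. Of the 21 photoreceptor genes, 4 were higher and 4 lower by the limma test below, against 5.78% and 5.77% of all genes tested. The lower ones were arr3a, sagb, arr3b and pde6c (log2 fold change -2.15 to -0.68), and the higher ones ran from 0.55 to 0.93. Their largest part, rho, was not called (log2 fold change 0.51, limma adjusted p = 0.287). What the chaperone calls become without akr7a3-/- eye 1, and without akr7a3+/+ eyes 1 and 3 together, is given with the other fits that leave out eyes. No fit left out all 3 of these eyes. Since whole eyes were sequenced, fewer cells of a type and less RNA per cell cannot be told apart.

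Of the 99 genes, 93 reached 0.5 FPKM in at least 6 eyes and were tested. The remaining 6 were dnajb9b, dnajb13, dnajc5b, dnajc22, hspb9 and hspb15, of which hspb9 had 1 read in all 12 eyes together. A gene was called changed where its adjusted p from limma, corrected over all 18473 genes tested, was under 0.05. By this rule 20 of the 93 chaperone genes differed between the genotypes, or 21.5%, where 11.5% of all genes tested did. Of these, 5 were higher in akr7a3-/- eyes, a share of the 93 near the 5.78% of all genes, while 15 were lower, to be read against 5.77%. The FPKM values of the genotypes did not overlap for 6 of the 93 genes, a share near the 6.62% of all genes tested. The median log2 fold change of akr7a3-/- over akr7a3+/+ eyes was -0.09 over the chaperone genes, with 57 below and 36 above 0, and -0.0080 over all genes tested.

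**Figure D1:**
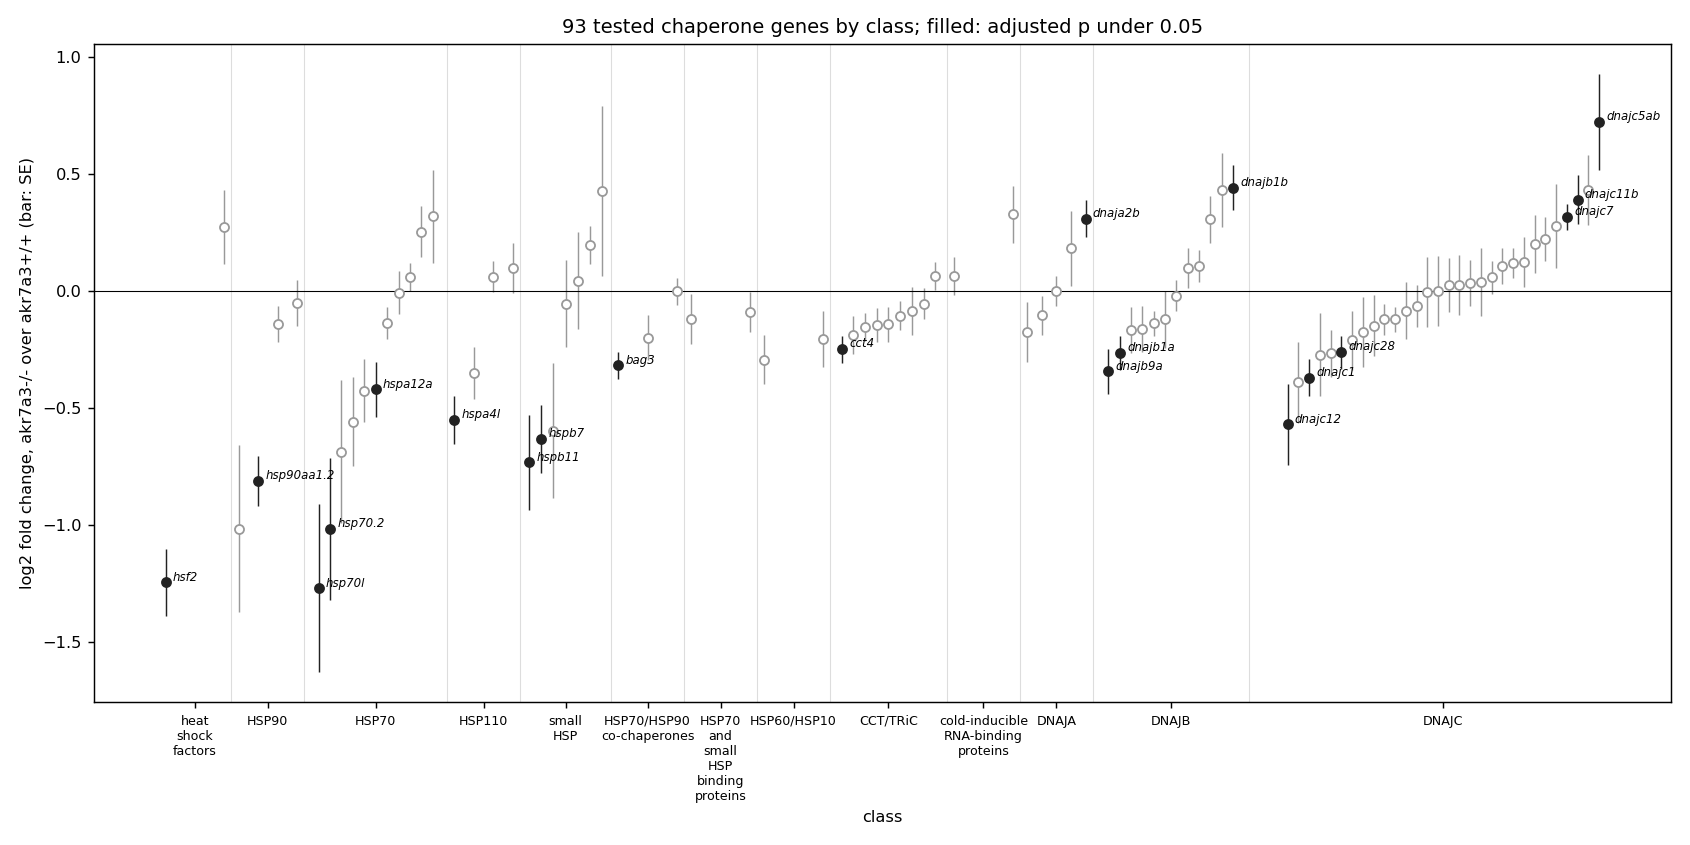
Log2 fold change of akr7a3-/- over akr7a3+/+ eyes (y axis; 12 eyes) for the 93 tested chaperone genes, grouped by class (x axis) and sorted within a class. Points are limma estimates on log2(FPKM + 0.5), bars are standard errors, and filled, named points are the 20 genes with an adjusted p under 0.05, 15 of them below 0.

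Each count of the main fit in this paragraph is to be read against 5.78% higher and 5.77% lower over all genes tested. Stress-inducible genes gave 6 of the 15 lower calls. A list of 16 tested genes known to be induced by heat (the hsp70 copies, the hsp90aa1 copies, hsph1, hspa4a, hspb1, hspb11, dnajb1a, dnajb1b, bag3, hspd1, hspe1 and stip1) had these 6 lower calls, 1 higher call and a median log2 fold change of -0.33, with 13 of the 16 below 0. Their summed level was 252 to 295 FPKM in akr7a3-/- eyes and 344 to 420 FPKM in akr7a3+/+ eyes, with hsp90aa1.2 as its largest part. The count of lower calls depended on the fit: it was 3 with voom, 2 to 5 with any 1 eye left out, 3 of these without akr7a3-/- eye 1, and 4 without akr7a3+/+ eyes 1 and 3, while the median stayed between -0.38 and -0.30. Of 19 tested constitutive cytosolic chaperones 2 were higher, 1 was lower and 16 did not pass the test. Their median was -0.10, with 14 of the 19 below 0. Neither of the 2 cold-inducible genes passed in limma or voom, and 1, cirbpa, had an unadjusted p under 0.05. Of 9 genes that work in the endoplasmic reticulum 2 were lower and none higher, with a median of -0.05, and of the other 47 genes 6 were lower and 2 higher, with a median of -0.02. Whether the lists differ from each other was not tested.

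hsf2 showed the smallest adjusted p of all 93 genes. It encodes heat shock factor 2, a relative of heat shock factor 1 that in mammals acts mainly in development and in the germ line and can pair with factor 1. Its level ran from 4.73 over a median of 5.63 to 8.25 FPKM in akr7a3-/- eyes, against 10.9, 15.3 and 19.1 FPKM in akr7a3+/+ eyes. The groups did not overlap, and the mean of 5.97 ± 1.21 FPKM in akr7a3-/- eyes was 0.401 times that in akr7a3+/+ eyes, 14.9 ± 3.01 FPKM (SD, 6 eyes a group). The log2 fold change was -1.25 (SE 0.14, adjusted p = 0.000155), and it rested on 2170 reads from akr7a3-/- eyes and 5502 reads from akr7a3+/+ eyes.

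hsf1, the master switch of the heat response, did not follow hsf2. Its lowest, median and highest levels were 11.1, 11.4 and 12.9 FPKM in akr7a3-/- eyes and 7.95, 8.42 and 17.3 FPKM in akr7a3+/+ eyes. In the akr7a3+/+ group the value of 17.3 FPKM came from eye 1 and stood far above the other 5 eyes, which reached at most 9.14 FPKM. With all eyes the log2 fold change was 0.27 (SE 0.16, adjusted p = 0.300). Without akr7a3+/+ eye 1 the same test gave an adjusted p of 0.0009, the lowest over the 12 fits that each left out 1 eye, so that this 1 library decided whether hsf1 was called higher.

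Within each eye, the log2 ratio of hsf2 to hsf1 averaged -0.92 ± 0.18 in akr7a3-/- eyes and 0.60 ± 0.67 in akr7a3+/+ eyes (SD), a difference of -1.52 (exact permutation test, two-sided, p = 0.00433; 0.0108 after adjustment over the 15 ratios compared). hsf2 was thus the less abundant of these 2 factors in each akr7a3-/- eye and the more abundant one in each akr7a3+/+ eye except eye 1. Here and below, ratios were taken on FPKM + 0.5. These ratios were chosen after the data were seen and reuse the FPKM values of the single-gene tests. Their p-values are therefore no separate support for the single-gene calls.

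hsp90aa1.2, a cytosolic HSP90 of the heat-inducible type, was the most abundant of the 20 called genes. In akr7a3-/- eyes it had a lowest, median and highest level of 98.1, 109.6 and 125.7 FPKM, against 147.1, 206.1 and 219.5 FPKM in akr7a3+/+ eyes. No eyes overlapped, and the lowest akr7a3+/+ eye was eye 1, as it was for hsf2. The means were 111 ± 12.2 and 197 ± 27.8 FPKM (SD), and the log2 fold change was -0.81 (SE 0.11, adjusted p = 0.000407). The read numbers were large, 56904 in akr7a3-/- eyes and 98747 in akr7a3+/+ eyes.

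The constitutive cytosolic HSP90, hsp90ab1, did not pass the test. It had 268 ± 21.8 FPKM in akr7a3-/- eyes and 295 ± 22.5 FPKM in akr7a3+/+ eyes (log2 fold change -0.14, 95% confidence interval -0.30 to 0.02, adjusted p = 0.266). The groups overlapped mainly through akr7a3-/- eye 1, at 312 FPKM. The other akr7a3-/- eyes had 254 to 263 FPKM and the akr7a3+/+ eyes 262 to 325 FPKM. hsp90ab1 was not called in any of the 12 fits that left out 1 eye (limma adjusted p at least 0.116). The log2 ratio of hsp90aa1.2 to hsp90ab1 in an eye was -1.27 ± 0.14 in akr7a3-/- eyes and -0.59 ± 0.29 in akr7a3+/+ eyes (SD), a difference of -0.67 (exact permutation test, two-sided, p = 0.00433; 0.0108 after adjustment over 15 ratios). hsp90b1, the HSP90 of the endoplasmic reticulum, gave 45.7 ± 6.07 FPKM in akr7a3-/- eyes and 47.4 ± 6.12 FPKM in akr7a3+/+ eyes (log2 fold change -0.05, 95% confidence interval -0.27 to 0.16).

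The other inducible HSP90, hsp90aa1.1, which in zebrafish serves myosin folding in striated muscle, was far lower in level and far more variable. Its lowest, median and highest values were 2.02, 3.74 and 5.92 FPKM in akr7a3-/- eyes and 2.93, 9.64 and 13.7 FPKM in akr7a3+/+ eyes. The groups overlapped through akr7a3+/+ eyes 6 and 7. With a log2 fold change of -1.02 (SE 0.36, adjusted p = 0.0871) it missed the threshold, and without akr7a3+/+ eye 6 it passed (adjusted p = 0.0226). Skeletal muscle markers moved the same way. In akr7a3-/- eyes 15 of 32 tested muscle genes were lower and none higher, where 5.77% of all genes tested were lower. Summed muscle levels were 939 to 1286 FPKM in akr7a3-/- eyes and 1108 to 2443 FPKM in akr7a3+/+ eyes, the lowest akr7a3+/+ sum being that of eye 6. That eye also had the least hsp90aa1.1 of its genotype. Eyes of like muscle sum could still differ: akr7a3+/+ eyes 4 and 7, with sums of 1624 and 1658 FPKM, had 13.7 and 4.54 FPKM of hsp90aa1.1. None of these muscle genes was at 0 in every eye. The part of muscle in the levels of hsp90aa1.1 was not tested.

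**Figure D2:**
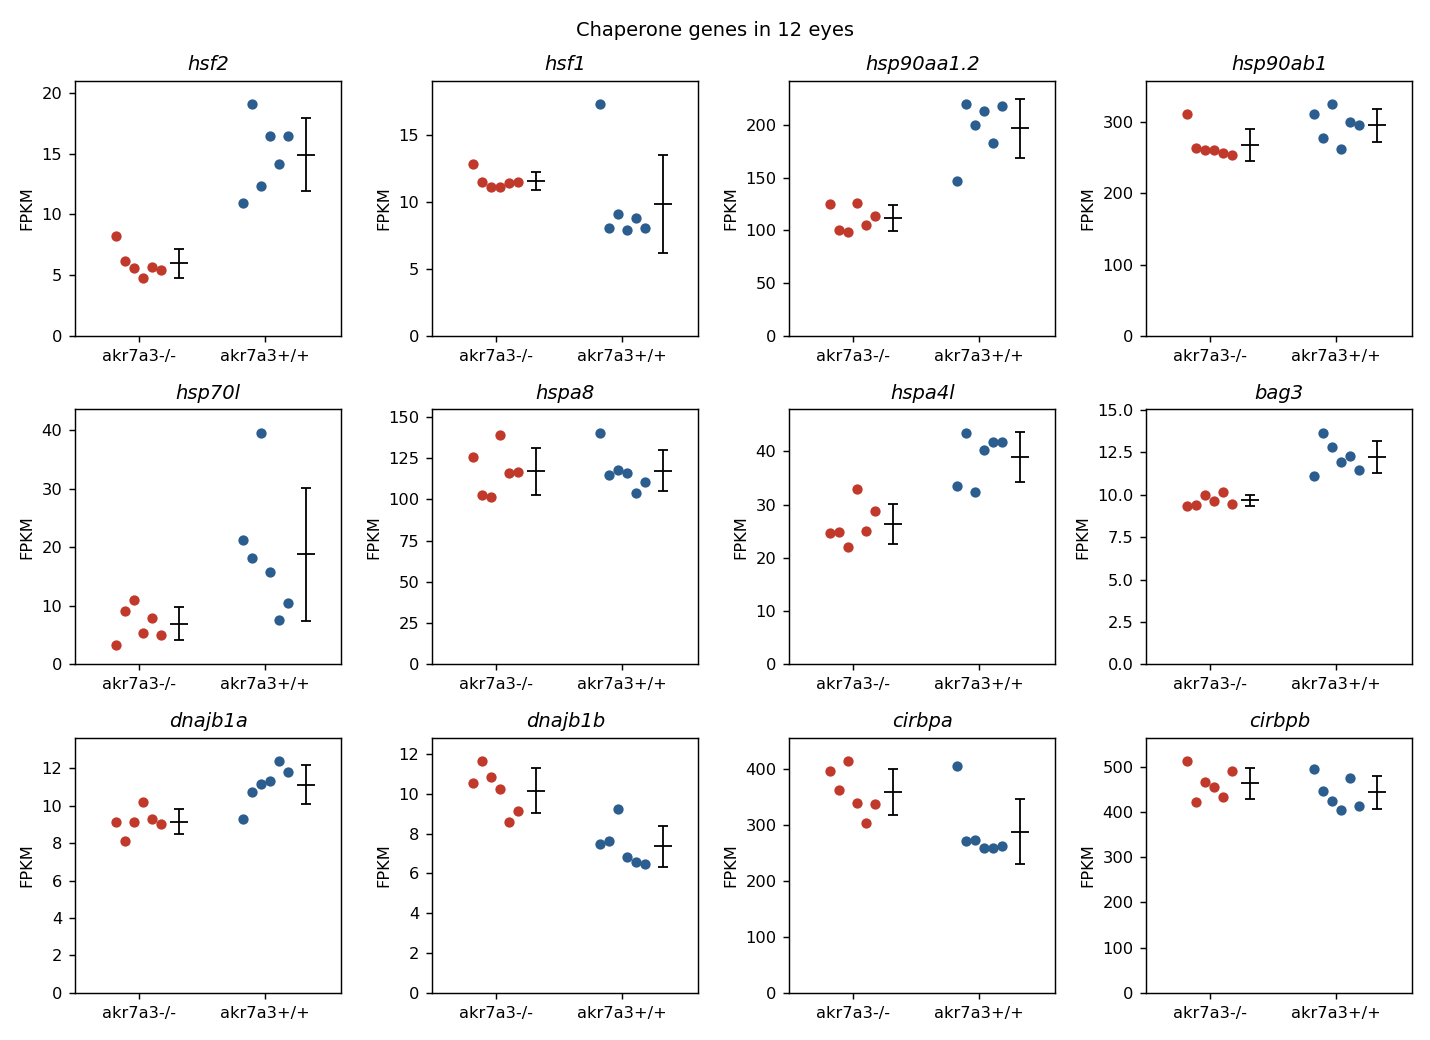
FPKM (y axis, from 0) of 12 chaperone genes in each akr7a3-/- eye (red) and akr7a3+/+ eye (blue), with the mean and SD of 6 eyes beside each group. hsf2, hsp90aa1.2 and bag3 show no overlap, while hspa8 and cirbpb overlap broadly. hsp90ab1 overlaps mainly through akr7a3-/- eye 1, at 312 FPKM. The akr7a3+/+ point of hsf1 at 17.3 FPKM and of cirbpa at 406 FPKM is eye 1.

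Among the HSP70 genes, 3 of 11 were lower and none higher, where 5.77% of all genes tested were lower, and each of these 3 calls (hsp70l, hsp70.2 and hspa12a) was lost in 8 or 9 of the 12 fits that left out 1 eye. hsp70l, a strongly heat-inducible HSP70 that zebrafish also express in the developing lens without heat shock, ran from 3.36 over 6.71 to 10.9 FPKM in akr7a3-/- eyes, against 7.65, 17.0 and 39.6 FPKM in akr7a3+/+ eyes. The groups overlapped, since akr7a3+/+ eyes 6 and 7 lay within the range of the akr7a3-/- eyes. The means were 6.99 ± 2.85 FPKM for akr7a3-/- and 18.8 ± 11.3 FPKM for akr7a3+/+ (SD; log2 fold change -1.27, SE 0.36, adjusted p = 0.0378). Over the fits that left out 1 eye the adjusted p of hsp70l ran from 0.0160 to 0.0775. The call was lost too without akr7a3+/+ eyes 1 and 3 together, where the log2 fold change was -0.87 (adjusted p = 0.117), a fit chosen after the data were seen.

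hsp70l levels ran with the lens markers of the same eye. The akr7a3-/- eye with the least hsp70l, eye 1, had the lowest lens sum (1020 FPKM), and the akr7a3-/- eye with the most, eye 5, had the highest (23310 FPKM). On the akr7a3+/+ side the least hsp70l was in eye 6, with the lowest lens sum (13404 FPKM), and the most in eye 3, with the highest (27053 FPKM). Eyes of like lens sum could still differ: akr7a3-/- eyes 4 and 5 had 9.18 and 10.9 FPKM of hsp70l at lens sums of 20365 and 23310 FPKM, while akr7a3+/+ eyes 1 and 2 had 21.3 and 18.2 FPKM at 22316 and 20295 FPKM, and eye 7 had 10.4 FPKM at 21920 FPKM. None of the 22 tested lens genes was called by limma on log2 FPKM or by voom, and 2 had an unadjusted p under 0.05, although all 22 had a log2 fold change below 0, with a median of -1.05. The part of the lens in the hsp70l call was not tested.

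The 3 further copies, hsp70.1, hsp70.2 and hsp70.3, are close in sequence to hsp70l, so that reads may have been shared out between them. hsp70.2 had lowest, median and highest levels of 0.703, 2.13 and 4.06 FPKM in akr7a3-/- eyes and 3.16, 4.24 and 7.52 FPKM in akr7a3+/+ eyes (log2 fold change -1.02, SE 0.30, adjusted p = 0.0467). hsp70.1 gave 1.01 ± 0.366 FPKM in akr7a3-/- eyes and 1.71 ± 0.55 FPKM in akr7a3+/+ eyes (log2 fold change -0.56, adjusted p = 0.0762), and hsp70.3 gave 3.95 ± 1.65 and 6.58 ± 2.77 FPKM in the same order (log2 fold change -0.69, adjusted p = 0.172). Summed, the 4 copies took 33.0 ± 12.5 RPM (reads scaled to the library's total) in akr7a3-/- eyes and 73.9 ± 36.5 RPM in akr7a3+/+ eyes (SD, 6 eyes a group). After the genotype means were removed, hsp70l correlated over the 12 eyes with hsp70.3 at r = 0.84, with hsp70.1 at r = 0.72 and with hsp70.2 at r = 0.56, eyes and possibly reads being shared. This was not particular to the copies. Other chaperone genes, hspb2 (r = 0.72), dnajc1 (0.71) and cct5 (0.67), followed hsp70l more closely than hsp70.2 did.

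hspa8, the constitutive cytosolic HSP70 and the fifth most abundant of the 99 genes, did not move with hsp70l. Its level was 117 ± 14.2 FPKM in akr7a3-/- eyes and 117 ± 12.3 FPKM in akr7a3+/+ eyes (SD). The log2 fold change of -0.01 had a 95% confidence interval of -0.21 to 0.19. Relative to hspa8 in the same eye, hsp70l was at a log2 ratio of -4.06 ± 0.72 in akr7a3-/- eyes and of -2.79 ± 0.73 in akr7a3+/+ eyes, a difference of -1.26 (SD; exact permutation test, two-sided, p = 0.0130; 0.0244 after adjustment over 15 ratios). A further gene listed as hsc70, outside the chosen names, ranged from 11.96 to 113 FPKM in akr7a3-/- eyes and from 37.2 to 109 FPKM in akr7a3+/+ eyes. Its log2 fold change was -0.86 (SE 0.49, limma adjusted p = 0.298). As for hsp70l, akr7a3-/- eye 1 was the lowest and eye 5 the highest of their group, and akr7a3+/+ eye 3 the highest of its own. The lowest akr7a3+/+ eye was eye 4 for hsc70 and eye 6 for hsp70l.

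HSP70 proteins of other compartments showed smaller differences. hspa5, also called BiP, the HSP70 of the endoplasmic reticulum, had lowest, median and highest levels of 35.6, 40.4 and 55.6 FPKM in akr7a3-/- eyes and 46.8, 54.4 and 80.0 FPKM in akr7a3+/+ eyes (log2 fold change -0.43, SE 0.14, adjusted p = 0.0606). It passed the threshold without akr7a3-/- eye 7, the highest of its group, or without akr7a3+/+ eye 2, the lowest of its own (adjusted p down to 0.0276). hspa9, the mitochondrial HSP70, gave 53.1 ± 4.0 FPKM in akr7a3-/- eyes and 58.4 ± 4.80 FPKM in akr7a3+/+ eyes (log2 fold change -0.14, adjusted p = 0.234). The distant relative hspa12a was lower, with 3.52 ± 0.627 FPKM in akr7a3-/- eyes and 4.87 ± 0.715 FPKM in akr7a3+/+ eyes (log2 fold change -0.42, SE 0.12, adjusted p = 0.0379).

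Genes that release clients from HSP70 included clearer calls. bag3, which links HSP70 and small heat shock proteins to autophagy, ran from 9.36 over 9.56 to 10.2 FPKM in akr7a3-/- eyes, against 11.1, 12.1 and 13.7 FPKM in akr7a3+/+ eyes. The groups did not overlap, and the difference of means, 9.68 ± 0.334 against 12.2 ± 0.937 FPKM (SD, n = 6 each), was modest in size and large beside the spread (log2 fold change -0.32, SE 0.06, adjusted p = 0.00401).

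The HSP110 gene hspa4l had lowest, median and highest levels of 22.1, 25.0 and 32.8 FPKM in akr7a3-/- eyes and 32.4, 41.0 and 43.5 FPKM in akr7a3+/+ eyes (log2 fold change -0.55, SE 0.10, adjusted p = 0.00434). The overlap was slight, between akr7a3-/- eye 7 and akr7a3+/+ eye 3. Its relative hsph1, a heat-inducible HSP110, gave 5.16 ± 0.574 FPKM in akr7a3-/- eyes and 6.76 ± 1.19 FPKM in akr7a3+/+ eyes and missed the threshold (log2 fold change -0.35, adjusted p = 0.0582), which it passed without akr7a3+/+ eye 7 (adjusted p = 0.0196). hspa4a and hspa4b had log2 fold changes of 0.10 and 0.06, with 95% confidence intervals of -0.13 to 0.33 and -0.08 to 0.21.

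The small heat shock proteins, which hold unfolding proteins without using ATP, held 2 lower calls among 7 tested genes. Of all genes tested, 5.77% were lower. hspb7, the cardiovascular small heat shock protein of mammals, had lowest, median and highest levels of 3.77, 5.28 and 7.61 FPKM in akr7a3-/- eyes and 6.88, 9.07 and 10.3 FPKM in akr7a3+/+ eyes (log2 fold change -0.63, SE 0.14, adjusted p = 0.0137). Only akr7a3-/- eye 7 reached into the akr7a3+/+ range. That eye had the highest muscle sum of its genotype, 1286 FPKM, and akr7a3-/- eye 9, with the least hspb7, had the lowest, 939 FPKM. On the akr7a3+/+ side eye 6 had both the least hspb7 and the lowest muscle sum, 1108 FPKM. The most hspb7 of that genotype was in eye 1, 10.3 FPKM, while the highest muscle sum was in eye 3, 2443 FPKM. Eyes of like muscle sum could differ: akr7a3+/+ eyes 4 and 7, at 1624 and 1658 FPKM, had 7.73 and 9.68 FPKM of hspb7. The part of muscle in the hspb7 call was not tested, and without akr7a3+/+ eyes 1 and 3 the adjusted p was 0.0634.

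hspb11, a small heat shock protein of zebrafish, had lowest, median and highest levels of 4.13, 5.09 and 7.21 FPKM in akr7a3-/- eyes and 5.71, 9.18 and 13.8 FPKM in akr7a3+/+ eyes (log2 fold change -0.73, SE 0.20, adjusted p = 0.0334), with overlapping groups and a call lost in 7 of the 12 fits that left out 1 eye. It was also the gene whose level across eyes was most like that of hsp90aa1.2 once the genotype means were removed (Pearson r = 0.79 over 12 eyes). The next most alike were dnaja3a (0.71), dnajb4 (0.68), dnajc3a (0.64) and dnajb1a (0.63). hspb1, the classic heat-inducible small heat shock protein, showed no call, with 28.3 ± 9.57 FPKM in akr7a3-/- eyes and 26.6 ± 5.41 FPKM in akr7a3+/+ eyes (log2 fold change 0.04, 95% confidence interval -0.40 to 0.49). hspb6 varied widely, from 4.85 to 16.5 FPKM in akr7a3-/- eyes and from 3.53 to 19.8 FPKM in akr7a3+/+ eyes.

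**Figure D3:**
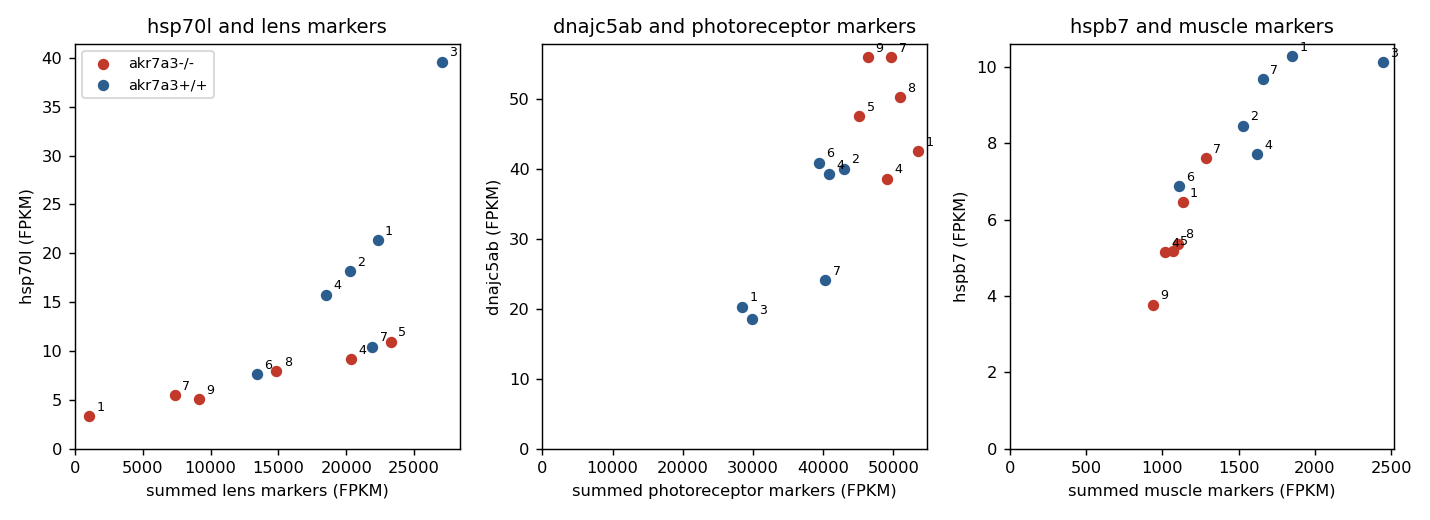
Level of a chaperone gene (y axis, FPKM) against the summed level of a tissue's marker genes in the same eye (x axis, FPKM), for hsp70l with lens, dnajc5ab with photoreceptor and hspb7 with muscle markers. Red points are akr7a3-/- eyes and blue points akr7a3+/+ eyes, each with its eye number; the akr7a3-/- eye with a lens sum of 1020 FPKM is eye 1, and akr7a3+/+ eyes 1 and 3 have the 2 lowest photoreceptor sums.

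In mitochondria, the HSP60 gene hspd1 and its lid hspe1 did not pass the test. hspd1 had 19.0 ± 3.02 FPKM in akr7a3-/- eyes and 23.3 ± 2.42 FPKM in akr7a3+/+ eyes (log2 fold change -0.29, adjusted p = 0.0898), and without akr7a3-/- eye 7 it was called lower (adjusted p = 0.0367). hspe1 had 11.5 ± 1.22 FPKM in akr7a3-/- eyes and 13.6 ± 2.79 FPKM in akr7a3+/+ eyes (log2 fold change -0.21, adjusted p = 0.311).

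The cytosolic chaperonin CCT, a ring built of subunits from different genes, held 1 call. That is 11.1% of its 9 tested rows, near the 11.5% called over all genes tested. cct4 had lowest, median and highest levels of 44.5, 48.6 and 54.7 FPKM in akr7a3-/- eyes and 55.4, 57.9 and 60.5 FPKM in akr7a3+/+ eyes, with no overlap (log2 fold change -0.25, SE 0.06, adjusted p = 0.0154). Of the 9 rows, 8 had a log2 fold change below 0, the exception being cct7 at 0.07. The uncalled rows included cct2 (ENSDARG00000104674) at -0.19, with a 95% confidence interval of -0.36 to -0.02, while cct6a was at -0.15, tcp1 at -0.15, cct5 at -0.14 and cct3 at -0.10. The summed CCT level was 405 to 455 FPKM in akr7a3-/- eyes and 452 to 482 FPKM in akr7a3+/+ eyes. The call of cct4 was lost under quantile normalization (adjusted p = 0.0530) and without akr7a3+/+ eyes 1 and 3 (adjusted p = 0.0580).

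Of the 2 adaptors between HSP70 and HSP90, neither was called. stip1, which encodes HOP and holds HSP70 and HSP90 together, gave 24.3 ± 1.40 FPKM in akr7a3-/- eyes and 24.3 ± 1.46 FPKM in akr7a3+/+ eyes, and the 95% confidence interval of its log2 fold change, -0.12 to 0.12, was among the narrowest here. st13, which encodes HIP, gave 79.5 ± 8.08 and 91.6 ± 11.2 FPKM in akr7a3-/- and akr7a3+/+ eyes (log2 fold change -0.20, adjusted p = 0.214). Without akr7a3+/+ eye 1, which had 70.13 FPKM where the other 5 eyes of its genotype had at least 91.6, the adjusted p of st13 was 0.0401.

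The cold-inducible RNA-binding proteins, which bind and stabilize messenger RNAs when cells are cooled, were the 2 most abundant of the 99 genes. cirbpb had lowest, median and highest levels of 422.4, 460.3 and 511.9 FPKM in akr7a3-/- eyes and 403.9, 434.4 and 495.1 FPKM in akr7a3+/+ eyes. The ranges nearly coincided (log2 fold change 0.07, 95% confidence interval -0.11 to 0.24, adjusted p = 0.661). The estimate depended on the processing. Under 7 other settings with all eyes the log2 fold change of cirbpb ran from 0.07 to 0.25, without a call (limma adjusted p at least 0.147).

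cirbpa ran from 304.4 over 351.5 to 414.9 FPKM in akr7a3-/- eyes, against 258.6, 267.5 and 406.5 FPKM in akr7a3+/+ eyes. The akr7a3+/+ value of 406.5 FPKM was that of eye 1, and the other 5 akr7a3+/+ eyes, at 258.6 to 274 FPKM, were below every akr7a3-/- eye. With all eyes the log2 fold change was 0.33 (SE 0.12, adjusted p = 0.101). Without akr7a3+/+ eye 1 the adjusted p was 0.0084, and under quantile normalization of all eyes it was 0.0399. The log2 ratio of cirbpa to cirbpb was -0.37 ± 0.15 in akr7a3-/- eyes and -0.63 ± 0.19 in akr7a3+/+ eyes (SD; exact permutation test, two-sided, p = 0.0303; 0.0505 after adjustment over 15 ratios). Across eyes the genes most like cirbpb, once the genotype means were removed, were dnajc12 (Pearson r = 0.66 over 12 eyes), dnajc5aa (0.64), dnajb12a (0.61), hsf1 (0.61) and dnaja2b (0.61), ahead of cirbpa (0.58).

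J-domain proteins, the partners that direct HSP70 to its clients, supplied all 5 higher calls, but lower calls as well. Of 5 tested dnaja genes 1 was higher and none lower. Of 12 dnajb genes 1 was higher and 2 lower, and of 30 dnajc genes 3 were higher and 3 lower. Over all genes tested, 5.78% were higher and 5.77% lower. dnajc7, which binds HSP70 and HSP90 and can pass clients back to HSP70, had lowest, median and highest levels of 21.9, 23.7 and 25.5 FPKM in akr7a3-/- eyes and 17.5, 19.0 and 20.7 FPKM in akr7a3+/+ eyes. It was the only chaperone gene higher in akr7a3-/- eyes without overlap (log2 fold change 0.32, SE 0.06, adjusted p = 0.00273).

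The copies of DNAJB1, the HSP40 that serves inducible HSP70, went opposite ways. dnajb1b was higher, with 8.56, 10.4 and 11.6 FPKM as the lowest, median and highest level in akr7a3-/- eyes and 6.46, 7.14 and 9.22 FPKM in akr7a3+/+ eyes (log2 fold change 0.44, SE 0.10, adjusted p = 0.0104). dnajb1a was lower, with 8.09, 9.14 and 10.2 FPKM in akr7a3-/- eyes and 9.31, 11.2 and 12.4 FPKM in akr7a3+/+ eyes (log2 fold change -0.27, SE 0.07, adjusted p = 0.0357). The log2 ratio of dnajb1a to dnajb1b was -0.50 to 0.11 in akr7a3-/- eyes and 0.26 to 0.86 in akr7a3+/+ eyes. These ranges did not overlap, and the means differed by -0.71 (exact permutation test, two-sided, p = 0.00216, the smallest that 6 against 6 eyes can give; 0.0108 after adjustment over 15 ratios). The call of dnajb1b held in all 12 fits that left out 1 eye, and that of dnajb1a was lost in 10 of them, with adjusted p from 0.0107 to 0.0760.

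Some other duplicated genes also differed from their copies. dnaja2b, a class A J-domain protein, was higher with 45.8 ± 2.33 FPKM in akr7a3-/- eyes and 37.0 ± 4.69 FPKM in akr7a3+/+ eyes (log2 fold change 0.31, SE 0.08, adjusted p = 0.0253), while its copy dnaja2a had 67.1 ± 5.54 and 67.0 ± 3.58 FPKM (log2 fold change 0.00, 95% confidence interval -0.14 to 0.14). Their ratio differed between the genotypes by -0.31 on the log2 scale with no overlap (exact permutation p = 0.00216; adjusted 0.0108). dnajc11b, whose protein is known in mitochondria, was higher with 6.52 ± 0.895 FPKM in akr7a3-/- eyes and 4.86 ± 0.683 FPKM in akr7a3+/+ eyes (log2 fold change 0.39, SE 0.10, adjusted p = 0.0286), and its copy dnajc11a did not pass the test (log2 fold change -0.12, adjusted p = 0.268). The ratio of dnajc11a to dnajc11b differed by -0.51 (exact permutation p = 0.00433; adjusted 0.0108). dnajc11b lies on the chromosome of akr7a3, as do dnajc14 and dnajc16l among the 93 genes, so that linked sequence carried along with the mutation and the loss of akr7a3 cannot be told apart for it.

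The log2 ratio of hspa12a to hspa12b differed between the genotypes by -0.68 with no overlap (exact permutation p = 0.00216; adjusted 0.0108). hspa12b by itself had 3.04 ± 0.483 FPKM in akr7a3-/- eyes and 2.46 ± 0.309 FPKM in akr7a3+/+ eyes without a call (log2 fold change 0.25, adjusted p = 0.153). In all, 15 within-eye ratios were compared, 12 of like-named copies and 3 chosen as inducible against constitutive or as hsf2 against hsf1. After adjustment 8 were under 0.05, but the adjustment does not correct for the choice of the ratios. Ratios for hspa4a to hspa4b, dnajb6a to dnajb6b and dnajb12a to dnajb12b differed by 0.04, 0.02 and 0.01 on the log2 scale, with permutation p-values of 0.630, 0.887 and 0.905.

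**Figure D4:**
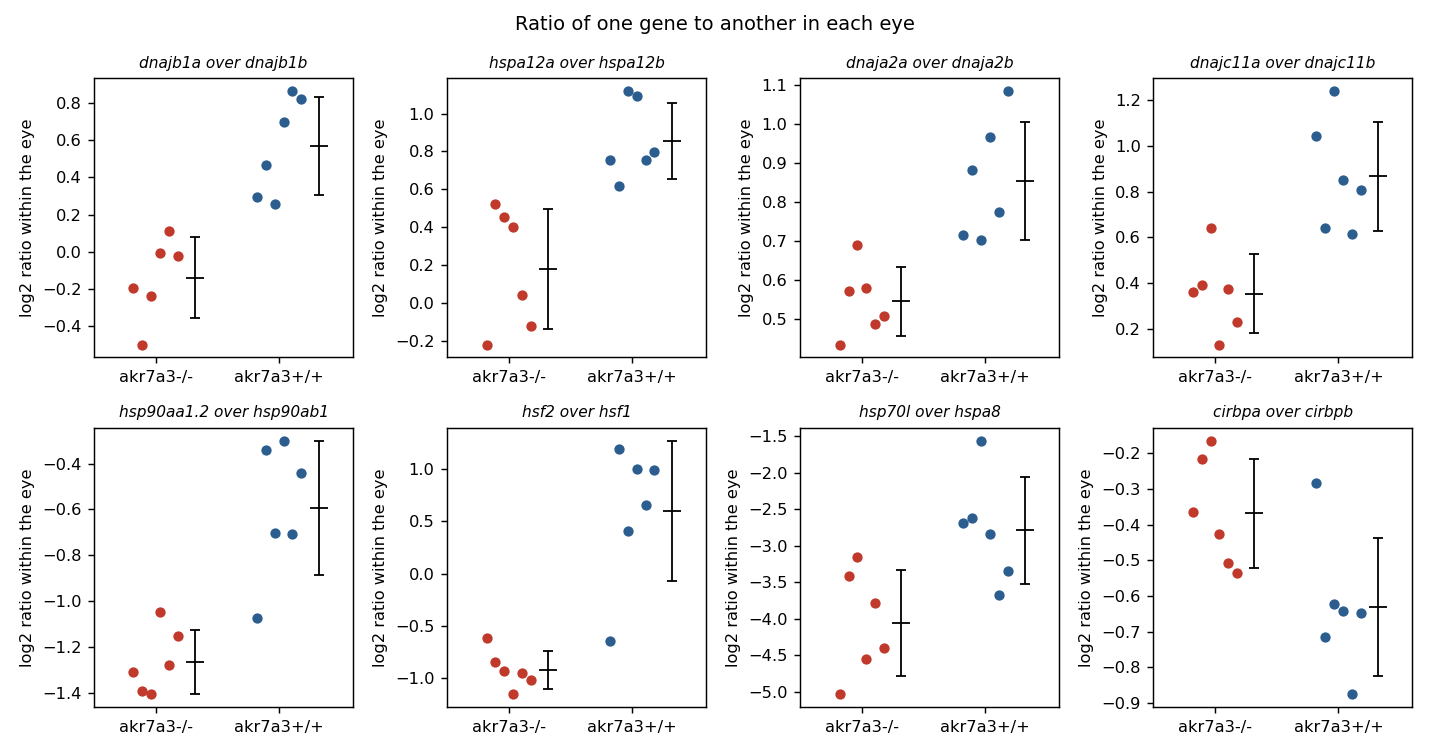
Log2 ratio of FPKM of a first gene to a second gene in the same eye (y axis) for 8 of the 15 pairs, in akr7a3-/- eyes (red) and akr7a3+/+ eyes (blue), with the mean and SD of 6 eyes. For dnajb1a over dnajb1b, hspa12a over hspa12b and dnaja2a over dnaja2b every akr7a3-/- eye lies below every akr7a3+/+ eye; in the hsf2 over hsf1 panel the low akr7a3+/+ point is eye 1.

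dnajc5ab, a copy of cysteine string protein, the J-domain protein of synaptic vesicles, had the largest log2 fold change of the higher calls, 0.72 (SE 0.21, adjusted p = 0.0394). Its lowest, median and highest levels were 38.6, 48.8 and 55.9 FPKM in akr7a3-/- eyes and 18.5, 31.6 and 40.9 FPKM in akr7a3+/+ eyes. The akr7a3+/+ eyes fell into 3 low values, 20.3, 18.5 and 24.1 FPKM in eyes 1, 3 and 7, and 3 that overlapped the akr7a3-/- eyes. Eyes 1 and 3 were those with the lowest photoreceptor sums, but eye 7 had a sum of 40305 FPKM, like the others. Without eyes 1 and 3 the log2 fold change of dnajc5ab was 0.44 (adjusted p = 0.114), and the part of photoreceptors in the call was not tested. dnaja3a was low in the same pair of eyes, at 9.66 and 10.3 FPKM, where the other akr7a3+/+ eyes had 16.1 to 18.8 FPKM and the akr7a3-/- eyes 14.6 to 18.6 FPKM. It was not called (adjusted p = 0.512).

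Of the J-domain genes that were lower, dnajc1, a membrane protein of the endoplasmic reticulum, was the clearest. It had lowest, median and highest levels of 14.5, 15.7 and 17.9 FPKM in akr7a3-/- eyes and 18.4, 19.9 and 24.6 FPKM in akr7a3+/+ eyes, with no overlap (log2 fold change -0.37, SE 0.08, adjusted p = 0.00898). dnajb9a, in mammals a J-domain protein that recruits BiP to misfolded proteins, had 6.48 ± 0.877 and 8.33 ± 0.884 FPKM in akr7a3-/- and akr7a3+/+ eyes (log2 fold change -0.34, adjusted p = 0.0358). Genes of the same compartment also lay on the other side of 0: dnajb11 had a log2 fold change of 0.31 (adjusted p = 0.0664) and dnajc10 one of 0.43 (adjusted p = 0.0835), neither called. dnajc12, which in humans is a co-chaperone of the aromatic amino acid hydroxylases, had 6.70 ± 1.66 FPKM in akr7a3-/- eyes and 10.2 ± 2.35 FPKM in akr7a3+/+ eyes (log2 fold change -0.57, adjusted p = 0.0483), and dnajc28 had 3.45 ± 0.208 and 4.24 ± 0.388 FPKM (log2 fold change -0.26, adjusted p = 0.0315). The remaining 37 of the 47 tested J-domain genes were not called.

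How far the 20 calls rest on single eyes was examined by leaving out each eye in turn. The calls of hsf2, hsp90aa1.2, dnajc7, bag3, hspa4l, dnajc1, dnajb1b, hspb7 and cct4 held in all 12 fits. The other 11 were lost in 5 to 10 fits, though none of their adjusted p-values went above 0.0997. Conversely, 9 uncalled genes passed in at least 1 fit. In these fits 2 to 6 genes were higher and 8 to 11 lower, and each eye cost 4 to 10 of the calls when it was left out. Calls over all genes also became fewer, for example 8.26% of those tested without akr7a3-/- eye 8. With the doubted eyes left out, there were 3 higher and 10 lower calls without akr7a3-/- eye 1, and 5 higher and 8 lower calls without akr7a3+/+ eyes 1 and 3. Leaving out akr7a3-/- eye 1 ended the calls of hsp70l, hsp70.2, hspa12a, dnajb1a, dnajc28, dnajc11b and dnajc5ab. Leaving out akr7a3+/+ eyes 1 and 3 together ended 10 of the 20 calls and made 3 others. Lost were cct4, hspb7 and hsp70l with the adjusted p-values given above, dnajc28 (0.0663), dnajb9a (0.0840), dnajc11b (0.0931), dnajc5ab (0.114), hspa12a (0.128), hsp70.2 (0.171) and dnajc12 (0.171). Newly called were hsf1 (log2 fold change 0.47, adjusted p = 0.00107) and cirbpa (0.44, adjusted p = 0.0130) as higher and dnajb4 (-0.30, adjusted p = 0.0357) as lower, so that the 5 higher genes of this fit held 3 of the original 5.

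**Figure D5:**
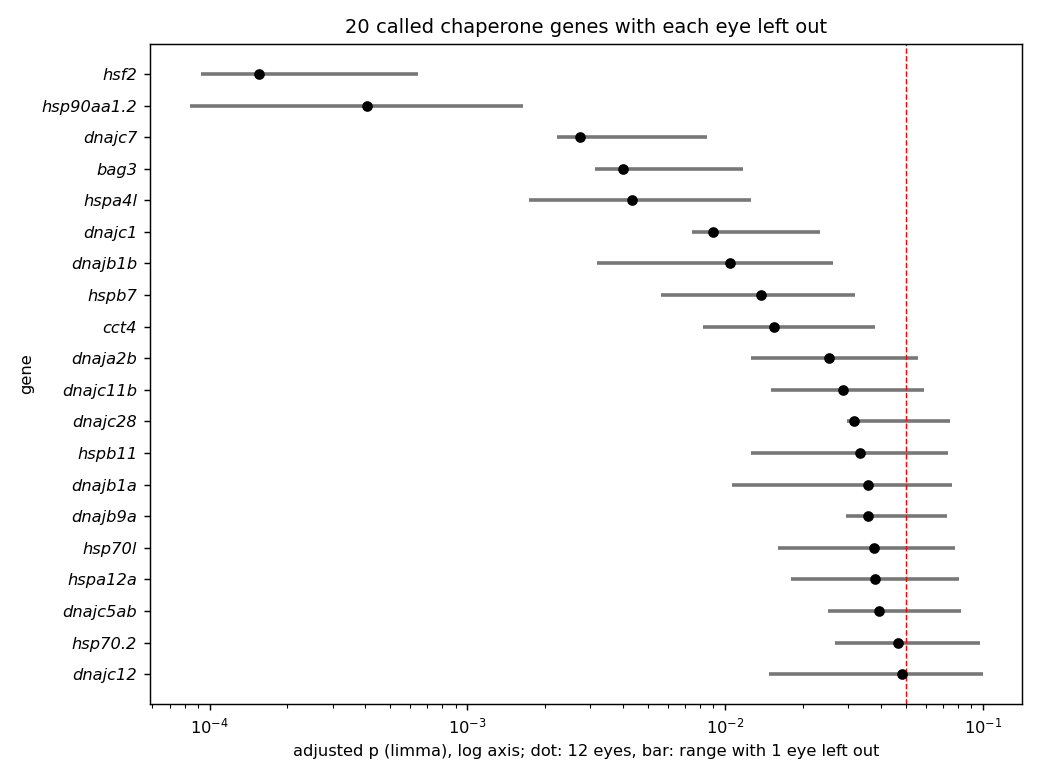
Adjusted p from limma (x axis, log scale) of the 20 called chaperone genes (y axis), with all 12 eyes (dot) and as the range over the 12 fits that leave out 1 eye (bar); the dashed line is 0.05. The bars of the 9 genes from hsf2 to cct4 stay left of the line and those of the other 11 cross it.

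A wider list of chaperone network genes outside the chosen names, 37 of them tested, held 1 higher and 6 lower calls, where 5.78% of all genes tested were higher and 5.77% lower. fkbp5, a co-chaperone of HSP90 on the glucocorticoid receptor and itself induced by glucocorticoids, had 56.9 ± 32.7 FPKM in akr7a3-/- eyes and 5.27 ± 4.25 FPKM in akr7a3+/+ eyes (SD; log2 fold change 3.36, SE 0.57, adjusted p = 0.00233). Its ranges, 10.4 to 102 and 1.32 to 11.8 FPKM, overlapped slightly. unc119b, which carries lipid-modified proteins in photoreceptors, was lower with 93.7 ± 6.87 and 131 ± 13.99 FPKM in akr7a3-/- and akr7a3+/+ eyes (log2 fold change -0.48, adjusted p = 0.00203). The myosin chaperone partners smyd1a and smyd1b, expressed in muscle, were lower, with log2 fold changes of -0.53 and -0.71 (adjusted p = 0.0209 and 0.0257), beside the muscle sums given above. cdc37l1, sgtb and pfdn1 were lower too, with log2 fold changes of -0.38, -0.27 and -0.26 (adjusted p = 0.0213, 0.0475 and 0.0478). The HSP90 partners fkbp4 and cdc37 had log2 fold changes of -0.18 and -0.20 and were not called.

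Gene groups that answer to the hour of day and to recent stimulation moved with the genotype as well. Counts of calls here are to be read against 5.78% higher and 5.77% lower over all genes tested. Of 19 core clock genes 6 were higher and 11 lower, with summed levels of 308 to 357 FPKM in akr7a3-/- eyes and 435 to 569 FPKM in akr7a3+/+ eyes. That sum joins genes that went opposite ways. For example, clocka and arntl2 were higher (log2 fold change 1.40 and 2.33), and per1b and nr1d1 were lower (-2.57 and -2.65). Of 19 immediate-early genes, among them fos and egr genes, 15 were lower and none higher, with sums of 261 to 466 FPKM in akr7a3-/- eyes and 918 to 1367 FPKM in akr7a3+/+ eyes. Neither pair of ranges overlapped. Heat shock genes and cirbp genes are known to respond to day time and to handling in other settings, and the part of either in the chaperone calls was not tested. Among the remaining marker lists, blood had 1 higher call of 11 and summed to 1009 to 1907 FPKM in akr7a3-/- eyes and 233 to 1546 FPKM in akr7a3+/+ eyes. Retinal pigment epithelium had 3 lower calls of 11, with sums of 371 to 550 FPKM in akr7a3-/- eyes and 472 to 639 FPKM in akr7a3+/+ eyes.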

How the data were processed

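RNA sequencing libraries of polyadenylated RNA were made with a strand-specific kit from 6 akr7a3-/- and 6 akr7a3+/+ eyes. For the deposited FPKM table, the authors aligned to the GRCz11 build by HISAT2 and assigned reads to genes by featureCounts (version 2.0.3 in the submitters' processing notes). Settings for strand and for reads that fit several genes are not given in the sources used here, so that near-identical copies are uncertain.

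The 18473 genes that reached 0.5 FPKM in 6 or more eyes were fitted on log2(FPKM + 0.5) with limma 3.58.1 in R 4.3.3, with a variance trend and the genotype as the only term. P-values were adjusted over all of these genes (Benjamini-Hochberg), and under 0.05 was called changed. Fold changes on this scale understate the change of low genes. Exact permutation tests compared the difference of means over all splits into 6 and 6 eyes and were two-sided. SciPy 1.17.1 gave the t distribution for the confidence intervals. The steps that 1 read makes in the FPKM values gave whole reads (within 0.01) for all 25432 genes. The 93 tested chaperone genes had a median of 632 reads per gene and eye and at least 7, and eyes of 1 genotype differed by more than sampling noise (chi-square per degree of freedom at least 27.8). The limma step and the read recovery were checked on simulated data. Reads are not independent molecules.

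Members, lists and classes were chosen by name with earlier results of these data known. Named genes were 26 fixed symbols, every called member of at least 1 FPKM, and the 5 members most like hsp90aa1.2 and cirbpb, in all 44 tested genes; other genes are named as members of a list or chosen after their values were seen. The 15 ratios were chosen after the data were seen. Chromosomes come from RefSeq GRCz12tu by symbol. Alternatives were other pseudocounts, filters and scalings, voom on the recovered reads, leaving out eyes, and a replicate block. Promoter and protein sequences were not analysed here.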

Additional observations from a re-analysis of the deposited data

Results flagged for a closer look

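In 7 of 88 groups of 6 eyes (44 named genes in each genotype) the highest or lowest eye stood apart from the other 5 by more of the range than Dixon's 95% critical value allows. Chance gives about 1 in 20 such groups. The akr7a3+/+ eye 1 accounted for 4 of them: hsf1 at 17.3 FPKM, cirbpa at 406 FPKM and hsp90b1 at 59.5 FPKM were high, and st13 at 70.13 FPKM was low. In akr7a3-/- eye 1, hsf1 at 12.9 FPKM and hsp90ab1 at 312 FPKM were high. The akr7a3+/+ eye 3 had hsp70.1 at 2.77 FPKM, above the other eyes of its genotype.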

How the results depend on the processing

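With each eye left out in turn, 2 to 6 chaperone genes were higher and 8 to 11 lower, and the median log2 fold change was -0.11 to -0.08. In these fits 8.26% to 11.1% of all genes tested were called. Other settings with all eyes gave 4 to 7 higher and 11 to 15 lower genes and a median of -0.10 to -0.08: 5 and 15 with a filter at 1 FPKM or a pseudocount of 1, 5 and 14 with a pseudocount of 0.1, 5 and 13 with median-of-ratios scaling, 7 and 13 with quantile normalization, 4 and 11 without a filter, and 5 and 11 with voom on the recovered reads. Of all genes tested, 7.8% were called without a filter and 11.4% to 12.9% under the others of these settings. No call changed its direction. Under these 7 settings hsp70.2 lost its call in 5, hspa12a in 2, and hsp70l, dnajb1a, dnajb9a, hspb11, dnajc5ab, dnajc12 and cct4 in 1 each. Without akr7a3+/+ eyes 1 and 3, 5 genes were higher and 8 lower, with 10 of the 20 calls lost and 3 gained. Over all genes tested 9.58% were then called. This fit and the 6-eye fit with no block were chosen after the data were seen.

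Numbers 1, 4 and 7 occur in both genotypes. Same-numbered eyes did not deviate together over the tested genes (correlations 0.085, -0.20 and 0.069). What the numbers stand for is not given in the sources used here, and these correlations cannot exclude a shared origin. With the number as a replicate block these 6 eyes gave 0 higher and 0 lower chaperone genes, where 0.00541% of all genes tested were called. Without the block the same 6 eyes also gave 0 and 0, where 0.682% of all genes tested were called. Both fits held fewer eyes than the main fit, and with so few calls over all genes these counts say nothing particular about chaperone genes. At an unadjusted p under 0.05 the counts were 7 higher and 10 lower with the block and 4 and 12 without it (limma). For counts at an unadjusted p, here and above, the share of all genes tested was not worked out. They cannot be read as more or fewer than over all genes. Low genes such as hsp70.1, hspb2 and hspb3 rest on few reads.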
